A study of Homo sapiens with 18 samples.

Results

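The average 24 h response of HaCaT and TIGK keratinocytes is the mean of both lines' own changes, 24 h after a scratch against the unscratched culture, taken on the log2 scale with each line set against its own 0 h. It rests on 12 of the 18 libraries of the series: HaCaT at 24 h, HaCaT at 0 h, TIGK at 24 h and TIGK at 0 h, with 3 libraries each. HaCaT is an immortal keratinocyte line from adult human skin. TIGK is a keratinocyte line from human gingiva, the gum, immortalised with telomerase. Each tissue is thus represented by 1 line. The study set oral against skin keratinocytes to look for expression differences behind the better healing of oral tissue, and the average asks which genes moved the same way in both. All 24 h cultures were scratched and all 0 h cultures were not, and no unscratched 24 h culture is among the groups, so the scratch itself and a further day in culture cannot be told apart. A gene was tested if it passed a filter on low counts, which left 17409 of 58735 listed genes, and calls were made where the adjusted p was below 0.05. Genes described as shared were called in the average and, in the same direction, in each line by that line's own contrast.

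After an epithelium is wounded, keratinocytes at the edge loosen their contacts, switch on early transcription factors and inflammatory signals, migrate over the gap, divide, and then return to differentiation and firm cell contacts once the layer has closed. Growth in culture needs ribosomes, whose assembly in the nucleolus is driven by MYC among others. Slowing cells lower this programme and raise genes of growth restraint, many of which FOXO transcription factors can switch on. Genes of mitosis are controlled together through a pair of promoter elements, the CCAAT box bound by NF-Y and the cell cycle homology region, CHR.

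The 12 libraries held 14238090 to 25011331 counted reads. TIGK 0 h C, the deepest, listed 26246 genes with at least 1 count and 5.08% mitochondrially encoded reads, where the other 11 listed 21457 to 22799 genes and held 5.84% to 8.08%. The genes risen in both lines number 1175 without TIGK 0 h C and TIGK 6 h C, against 1189 with them, and 1090 are in both sets. The genes fallen in both number 1530 without these libraries, against 1497 with them, and 1381 are in both sets. TIGK 24 h C also stood apart from its group: over genes, the chi-square per degree of freedom between libraries was 17.89 and 13.48 for its pairs with A and B, against 7.05 between A and B. For the pairs of TIGK 0 h C it was 15.78 and 17.56, against 6.68. Within HaCaT groups it was 3.64 to 7.02. Without all 3 TIGK libraries of letter C (0 h, 6 h and 24 h), a setting chosen after seeing the data, 1246 genes rose and 1562 fell in both lines. List counts without TIGK 0 h C and 6 h C, or without all 3, stand beside those they changed most. Of 10 keratinocyte markers all 10 were tested, with a summed level of 40850 to 44860 CPM (read counts scaled to library size) in HaCaT at 24 h and 43290 to 44810 at 0 h, and of 40370 to 45920 in TIGK at 24 h and 35490 to 36830 at 0 h. Of 7 fibroblast markers 5 were tested and 2 rose in the average, with a summed level of 37.7 to 40.5 CPM in HaCaT at 24 h and 24.9 to 29.1 at 0 h, and of 391 to 435 in TIGK at 24 h and 236 to 274 at 0 h. Markers of melanocytes summed to at most 27.6 CPM in any of the 12 libraries, those of endothelium to at most 8.15 and those of immune cells to at most 6.35. The part of other cell types in the results below was not tested. In RNA from whole cultures, fewer cells of a type and less RNA per cell cannot be told apart.

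The average response was called for 6988 genes, 40.1% of those tested. It rose for 3456 genes (19.9%) and fell for 3532 (20.3%). By HaCaT's own contrast 2706 genes rose (15.5%) and 2765 fell (15.9%), and by TIGK's own 2655 rose (15.3%) and 2962 fell (17%). Both lines and the average agreed on a rise for 1189 genes (6.83%) and on a fall for 1497 (8.6%). These shared rises were 43.9% of the genes risen in HaCaT and 44.8% of those risen in TIGK, and the shared falls were 54.1% of the HaCaT falls and 50.5% of the TIGK falls. A call in the average is therefore not by itself a shared response: of the 3456 average rises, 916 were called in HaCaT only, 985 in TIGK only, 336 in neither line and 30 in opposite directions. Of the 3532 average falls, 862 were called in HaCaT only, 816 in TIGK only, 339 in neither and 18 in opposite directions. In all 322 genes (1.85%) were called in opposite directions by the lines, 221 of them up in HaCaT and down in TIGK, and the average called 48 of the 322. The list counts below are to be read beside the shares of all tested genes given here.

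Most shared changes were of moderate size. The median log2 fold change of the genes risen in both lines was 0.66 in the average, 0.63 in HaCaT and 0.66 in TIGK, and that of the genes fallen in both was -0.58, -0.61 and -0.53; the median over all genes tested was 0.01, 0.00 and -0.01. These genes were selected by their calls, so their direction is given as a description. At least 1 log2 unit in each line was reached by 192 of the 1189 risen genes (16.1%) and by 126 of the 1497 fallen genes (8.42%). In each line the 3 libraries at 24 h lay above the 3 at 0 h for 1107 of the risen genes, and below them for 1402 of the fallen genes; over all genes tested the libraries were separated upward in both lines for 9.59% and downward for 10.7%. The size of the response differed between the lines for 2354 genes (13.5% of those tested), for 160 of the shared rises and for 207 of the shared falls. Of the 160, 79 rose more in HaCaT and 81 more in TIGK. Of the 207, 153 fell more in HaCaT and 54 more in TIGK.

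**Figure D1:**
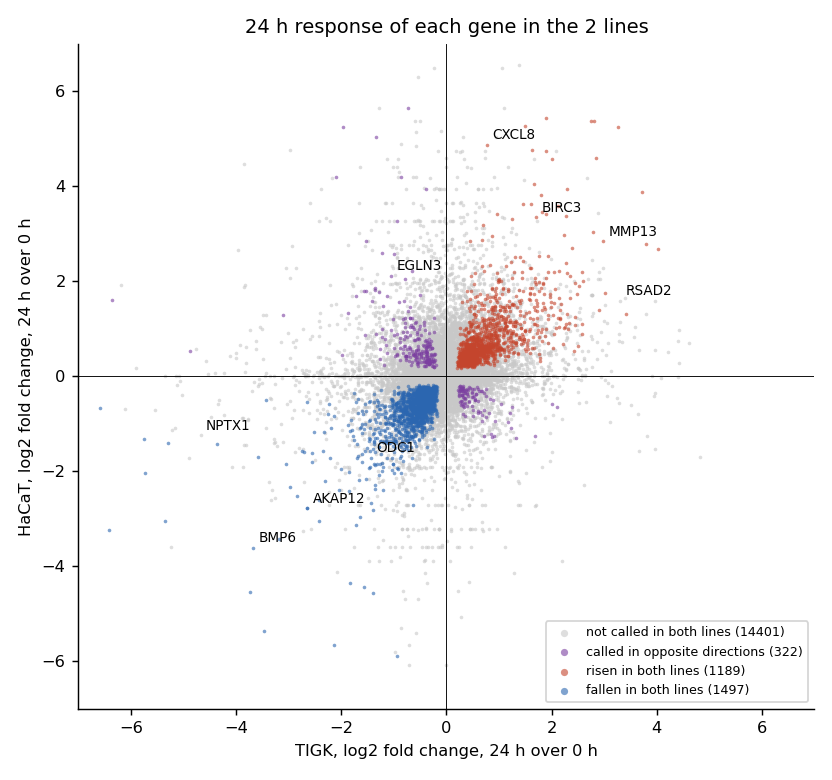
Log2 fold change of each tested gene, 24 h over 0 h, in HaCaT (vertical axis) against TIGK (horizontal axis). Each point is a gene, coloured by whether it was called up in both lines (1189), down in both (1497) or in opposite directions (322). The named genes MMP13, BIRC3, BMP6 and AKAP12 lie in the quadrants of shared direction, and EGLN3 lies in that of a rise in HaCaT and a fall in TIGK.

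Genes with large shared rises included regulators of differentiation and growth, a skin chemokine and a survival factor. TSC22D3, a glucocorticoid-induced protein also known as GILZ (chromosome X, 107713221 to 107777342, hg38), stood at 362, 369 and 346 CPM in HaCaT at 24 h, against 84.8, 88.8 and 80.9 at 0 h. Its TIGK values were 149, 117 and 141 CPM at 24 h, against 48.2, 36.8 and 41.6 at 0 h. The groups did not overlap in either line, and the difference between the lines' responses was not called (HaCaT minus TIGK, log2 0.40, SE 0.14, adjusted p = 0.062).

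CXCL14, a chemokine made by resting epithelium (chromosome 5, 135570679 to 135579279), had 259, 218 and 297 CPM in HaCaT at 24 h, against 72.3, 80.0 and 80.3 at 0 h, and 344, 313 and 425 CPM in TIGK at 24 h, against 77.6, 61.5 and 53.9 at 0 h. It rose in both lines and more in TIGK, with log2 fold changes of 1.73 in HaCaT and 2.49 in TIGK (adjusted p = 0.024 for the difference). BIRC3, an inhibitor of cell death and a target of NF-kB (chromosome 11, 102317450 to 102339403), had 95.9, 93.5 and 98.7 CPM in HaCaT at 24 h, against 8.91, 10.5 and 8.73 at 0 h, and 20.6, 20.1 and 19.4 CPM in TIGK at 24 h, against 6.76, 4.79 and 6.69 at 0 h. Its rise was larger in HaCaT (10.2-fold against 3.28-fold, adjusted p = 3.8e-07 for the difference). GRHL3, a transcription factor needed for wound closure and the epidermal barrier in mice, stood at 18, 19.8 and 21.1 CPM in HaCaT at 24 h, against 5.32, 5.82 and 6.43 at 0 h, and at 31.6, 35.4 and 32.0 CPM in TIGK at 24 h, against 14.1, 9.23 and 9.80 at 0 h. It rose in both lines, with log2 fold changes of 1.75 in HaCaT and 1.59 in TIGK (average adjusted p = 1.2e-10).

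Other genes at the top of the shared rises were DSG1, METTL7A, DLX4, C10orf99, SULT1E1, SMIM14 and STON1, with average log2 fold changes of 1.83 to 2.14 and adjusted p from 1.9e-12 to 4.1e-07. DSG1 encodes the desmosomal cadherin of upper epidermal layers, and it averaged 147 ± 25.2 CPM in HaCaT at 24 h and 37.7 ± 10.1 at 0 h, and 12.1 ± 1.49 CPM in TIGK at 24 h and 3.40 ± 0.411 at 0 h (SD, n = 3 each). DLX4, a homeobox transcription factor, averaged 17.6 ± 2.14 CPM in HaCaT at 24 h and 3.03 ± 0.441 at 0 h, and 18.1 ± 3.06 CPM in TIGK at 24 h and 5.39 ± 1.07 at 0 h. SULT1E1, which sulfates and so inactivates estrogens, averaged 18.9 ± 3.23 CPM in HaCaT at 24 h and 4.76 ± 1.36 at 0 h, and 131 ± 10.6 CPM in TIGK at 24 h and 41.0 ± 5.63 at 0 h. STON1 is an endocytic adaptor, SMIM14 a small membrane protein and METTL7A a methyltransferase-like protein of the endoplasmic reticulum and lipid droplets. C10orf99 encodes a small secreted peptide of epithelia, and it averaged 33.8 ± 9.75 CPM in TIGK at 24 h and 10.4 ± 3.32 at 0 h. None of these 7 genes had a called difference between the lines (adjusted p from 0.098 to 0.86).

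The largest shared fall was that of BMP6, a bone morphogenetic protein made by keratinocytes (chromosome 6, 7726797 to 7881422). It had 1.02, 0.750 and 0.848 CPM in HaCaT at 24 h, against 11.7, 8.61 and 12 at 0 h, and 1.05, 0.980 and 0.752 CPM in TIGK at 24 h, against 13.6, 14.2 and 8.40 at 0 h. The fall was 12.2-fold in HaCaT and 12.8-fold in TIGK (average log2 -3.65, SE 0.17, adjusted p = 4e-14), and the difference between lines was 0.07 (adjusted p = 0.95). AKAP12, a scaffold protein that anchors protein kinase A (chromosome 6, 151239999 to 151358557), had 3.75, 3.89 and 3.65 CPM in HaCaT at 24 h, against 26.3, 24.8 and 26.6 at 0 h. Its TIGK levels were 16.0, 15.1 and 12 CPM at 24 h, against 80.4, 100 and 91.0 at 0 h. The 3 libraries of each group lay close together, and the average log2 fold change was -2.71 (SE 0.08, adjusted p = 2.4e-17).

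HSPA8, the constitutive cytosolic HSP70 chaperone (chromosome 11, 123057489 to 123063230), had 761, 692 and 769 CPM in HaCaT at 24 h, against 2514, 2536 and 2289 at 0 h. In TIGK it had 735, 1045 and 932 CPM at 24 h, against 4280, 4258 and 3981 at 0 h. It fell in both lines and more in TIGK, 4.62-fold against 3.30-fold in HaCaT (adjusted p = 0.01 for the difference). GPAT3, which starts glycerolipid synthesis, averaged 4.2 ± 0.530 CPM in HaCaT at 24 h and 19.4 ± 2.95 at 0 h, and 5.39 ± 0.725 CPM in TIGK at 24 h and 26.7 ± 2.65 at 0 h. ALDH1A3, which makes retinoic acid, averaged 9.93 ± 1.17 CPM in HaCaT at 24 h and 34.7 ± 3.82 at 0 h, and 12.3 ± 1.54 CPM in TIGK at 24 h and 37.4 ± 1.57 at 0 h. ODC1, the first enzyme of polyamine synthesis and a known MYC target, averaged 80.9 ± 5.26 CPM in HaCaT at 24 h and 265 ± 25.1 at 0 h, and 144 ± 22.2 CPM in TIGK at 24 h and 388 ± 39.2 at 0 h.

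The remaining genes of this group are a prostaglandin enzyme, a channel, a protease inhibitor and 3 others. PTGS1, the constitutive cyclooxygenase, averaged 36.7 ± 0.312 CPM in HaCaT at 24 h and 138 ± 14.2 at 0 h, and 42.2 ± 4.15 CPM in TIGK at 24 h and 115 ± 7.51 at 0 h. AQP3, the glycerol and water channel of basal keratinocytes, averaged 79.0 ± 7.02 CPM in HaCaT at 24 h and 299.6 ± 35.4 at 0 h, and 70.0 ± 12.2 CPM in TIGK at 24 h and 193 ± 18 at 0 h. Both fell more in HaCaT, with differences of -0.47 for PTGS1 (adjusted p = 0.012) and -0.46 for AQP3 (adjusted p = 0.045). SERPINE2, an inhibitor of plasminogen activators and thrombin, averaged 80.5 ± 6.62 CPM in HaCaT at 24 h and 239 ± 3.76 at 0 h, and 44.3 ± 2.11 CPM in TIGK at 24 h and 129.9 ± 20 at 0 h. OSBP2, an oxysterol-binding protein, ST3GAL1, a sialyltransferase, and GNG4, a G protein subunit, fell with average log2 fold changes of -1.93, -1.71 and -1.68 and no called difference between the lines (adjusted p = 0.75 to 0.99).

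**Figure D2:**
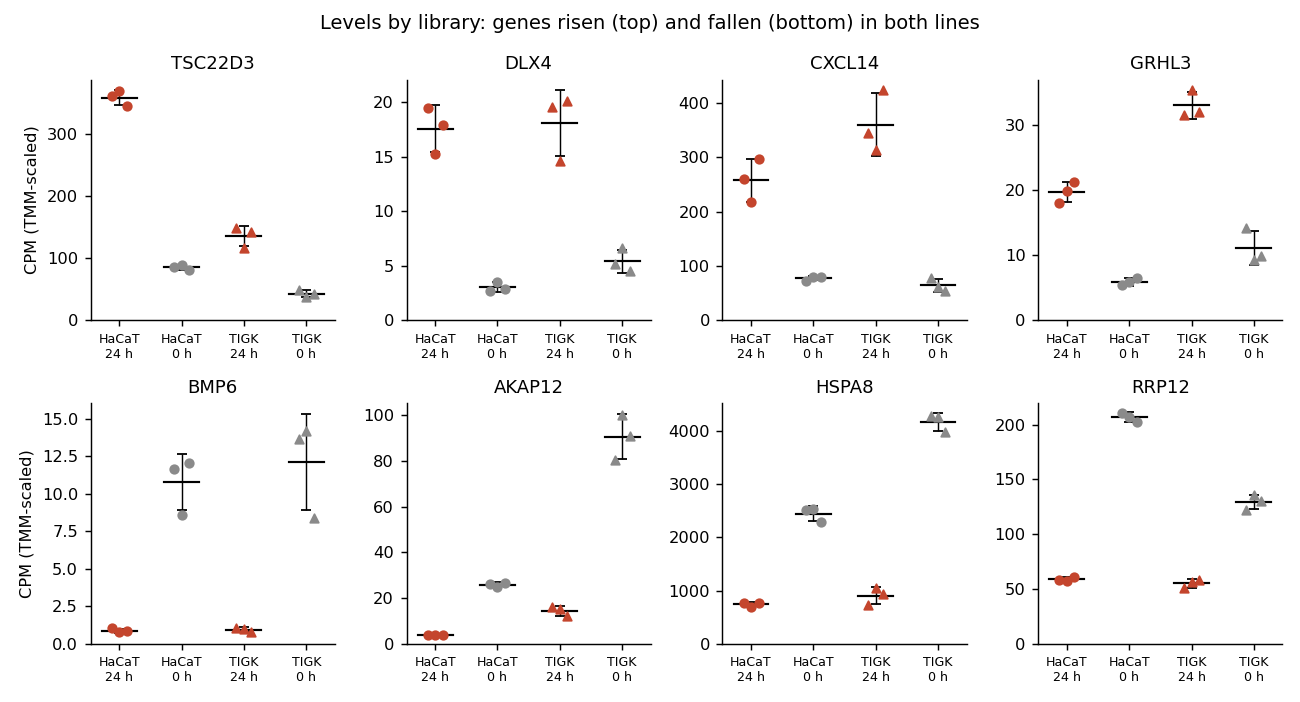
TMM-scaled CPM of 8 genes in each of the 12 libraries, with the mean and SD of each group of 3 (bars); circles are HaCaT, triangles TIGK, red points 24 h and grey points 0 h. In TSC22D3, DLX4, CXCL14 and GRHL3 all 24 h points lie above the 0 h points of the same line, and in BMP6, AKAP12, HSPA8 and RRP12 all lie below them.

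The most uniform list was that of ribosome biogenesis and MYC targets, which also holds the MYC target ODC1. Of its 38 tested members 36 fell and 0 rose in the average, 35 fell in both lines, and the median average log2 fold change was -0.89; the exceptions to a fall in both lines were FBL, NOP2 and NHP2. Without TIGK 0 h C and 6 h C, and also without all 3 libraries of letter C, the number fallen in both was again 35. RRP12, a nucleolar factor that carries ribosomal precursors out of the nucleus, had 57.9, 57.6 and 60.9 CPM in HaCaT at 24 h, against 211, 207 and 202 at 0 h, and 50.7, 56.3 and 58.4 CPM in TIGK at 24 h, against 122, 135 and 130.2 at 0 h. It fell 3.52-fold in HaCaT and 2.35-fold in TIGK (adjusted p = 0.00018 for the difference). MYBBP1A, a nucleolar regulator of ribosomal RNA transcription, averaged 108 ± 8.28 CPM in HaCaT at 24 h and 309.9 ± 13.2 at 0 h, and 163 ± 11.1 CPM in TIGK at 24 h and 320.1 ± 8.70 at 0 h. Both genes fell more in HaCaT, and 17 of the 38 members had a called difference between lines. The MYC transcript itself was not called, with 245 ± 22.4 CPM in HaCaT at 24 h and 244 ± 11.3 at 0 h, and 330.3 ± 12.1 CPM in TIGK at 24 h and 321 ± 62.5 at 0 h (average log2 0.02, adjusted p = 0.85); MYC is named here after its values were seen.

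The E-box CACGTG is a site that MYC and several other factors bind. It was found in 12 of 30 promoters of the ribosome biogenesis and MYC target list (40.0%), against 9.93% of those of all tested genes. The list includes MYC targets by choice, so this share does not describe ribosome genes alone. The window was 250 bases before to 50 after the RefSeq start of the gene, searched on both strands, and the promoters come from RefSeq, GRCh38.p14. These starts can differ from the ends of the gene spans in the deposited annotation, so that the stretches printed for UTP4, CCNB2 and TOP2A lie wholly or partly within those spans. Shown for 2 members, UTP20 and UTP4, which act in the early processing of ribosomal RNA, are the 250 bases before the RefSeq start, 5′ to 3′ on the gene's strand with the E-box in capitals. UTP20 lies on the plus strand (chr12:101279855-101280104) and UTP4 on the plus strand (chr16:69132399-69132648).
UTP20: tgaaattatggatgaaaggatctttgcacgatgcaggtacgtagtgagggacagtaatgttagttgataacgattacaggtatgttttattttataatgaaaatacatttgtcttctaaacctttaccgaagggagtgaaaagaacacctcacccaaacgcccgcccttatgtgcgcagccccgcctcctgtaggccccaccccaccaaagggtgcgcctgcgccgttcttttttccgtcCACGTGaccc
UTP4: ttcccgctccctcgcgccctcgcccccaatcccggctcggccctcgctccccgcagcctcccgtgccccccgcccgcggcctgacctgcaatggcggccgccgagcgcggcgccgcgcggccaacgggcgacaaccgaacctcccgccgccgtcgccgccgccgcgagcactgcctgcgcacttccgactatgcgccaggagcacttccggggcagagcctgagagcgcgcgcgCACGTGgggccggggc
The UTP20 transcript had 39.8, 38.9 and 37.1 CPM in HaCaT at 24 h, against 98.6, 97.8 and 96.1 at 0 h, and 70.1, 83.5 and 66.3 CPM in TIGK at 24 h, against 137, 121 and 117 at 0 h. UTP4 had 64.5, 60.1 and 71.4 CPM in HaCaT at 24 h, against 134, 137 and 138 at 0 h, and 95.5, 107 and 103 CPM in TIGK at 24 h, against 158, 163 and 149 at 0 h. Both fell in both lines with no overlap between times, and both were shown because they carry a match in the printed stretch.

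Heat shock chaperones fell with the ribosome genes. Of 18 tested, 14 fell and 3 rose in the average, 12 fell in both lines, and the median was -0.56. HSPH1, an exchange factor for HSP70, averaged 212 ± 7.42 CPM in HaCaT at 24 h and 424 ± 4.37 at 0 h, and 163 ± 22 CPM in TIGK at 24 h and 363 ± 35.6 at 0 h. HSPA1A, an inducible HSP70 gene, fell in both lines and more in TIGK (log2 -0.73 in HaCaT and -1.53 in TIGK, adjusted p = 0.001 for the difference); it has a near-identical copy, HSPA1B, so reads may be split between them. The 1 chaperone that rose in both was HSPB8, a small heat shock protein that works with BAG3 in autophagy, with 21.4 ± 3.52 CPM in HaCaT at 24 h and 7.78 ± 0.811 at 0 h, and 18.9 ± 2.18 CPM in TIGK at 24 h and 10.4 ± 0.400 at 0 h.

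Growth restraint genes rose. The list of cell cycle inhibitors and genes linked to FOXO also holds the D-type cyclins CCND1, CCND2 and CCND3. Of its 30 tested members, 25 rose and 2 fell in the average, 20 rose in both lines, and the median was 0.89. CDKN1A, which encodes the cyclin-dependent kinase inhibitor p21 (chromosome 6, 36676460 to 36687339), had 214, 205 and 224 CPM in HaCaT at 24 h, against 62.5, 59.9 and 56.3 at 0 h, and 185, 171 and 208 CPM in TIGK at 24 h, against 87.4, 77.9 and 85.7 at 0 h. It rose in both lines, 3.60-fold in HaCaT and 2.25-fold in TIGK (adjusted p = 0.00048 for the difference). The 2 members that fell were D-type cyclins, which drive entry into the cycle. CCND1 (chromosome 11, 69641087 to 69654474) had 289.6, 323 and 292 CPM in HaCaT at 24 h, against 622, 587 and 628 at 0 h, and 514, 531 and 437 CPM in TIGK at 24 h, against 993, 999 and 984 at 0 h. Its fall was 2.03-fold in HaCaT and 2.01-fold in TIGK (average log2 -1.01, SE 0.05, adjusted p = 1.4e-13), and CCND2 fell with an average log2 of -0.57.

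Genes of mitosis rose in the same libraries. Of 40 tested G2/M genes, 36 rose and 0 fell in the average, 28 rose in both lines, and the median was 0.63. Without TIGK 0 h C and 6 h C, and also without all 3 libraries of letter C, 37 rose and 29 rose in both. TOP2A, the DNA topoisomerase of dividing cells (chromosome 17, 40388516 to 40417950), had 428, 435 and 419 CPM in HaCaT at 24 h, against 228, 231 and 218 at 0 h, and 283, 334 and 239.8 CPM in TIGK at 24 h, against 118, 106 and 141 at 0 h. CCNB2, a mitotic cyclin (chromosome 15, 59105078 to 59125045), had 82.2, 78.0 and 83.7 CPM in HaCaT at 24 h, against 45.4, 50.1 and 42.2 at 0 h, and 58.1, 71.7 and 61.8 CPM in TIGK at 24 h, against 22, 23.2 and 27.5 at 0 h. Times did not overlap for either gene in either line, and CCNB2 rose more in TIGK (2.63-fold against 1.77-fold in HaCaT, adjusted p = 0.0074 for the difference). TPX2, a spindle assembly factor, also rose more in TIGK, with log2 fold changes of 0.57 in HaCaT and 1.10 in TIGK (adjusted p = 0.0012 for the difference).

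The G2/M promoters hold both elements known for this group: the CHR, TTTGAA, in 24 of 33 with a sequence (72.7%), against 9.7% of all tested genes, and the CCAAT box in 25 of 33 (75.8%), against 36.1%. Among the promoters of all genes risen in both lines the shares were 14.9% and 41.7%, and among those fallen in both 7.21% and 33.4%. The 250 bases before the RefSeq start are printed for CCNB2 (plus strand, chr15:59104896-59105145) and TOP2A (minus strand, chr17:40417897-40418146). They show how matches can repeat within a promoter. In capitals are matches to either element on either strand. ATTGG is a CCAAT box and TTCAAA a CHR read on the other strand.
CCNB2: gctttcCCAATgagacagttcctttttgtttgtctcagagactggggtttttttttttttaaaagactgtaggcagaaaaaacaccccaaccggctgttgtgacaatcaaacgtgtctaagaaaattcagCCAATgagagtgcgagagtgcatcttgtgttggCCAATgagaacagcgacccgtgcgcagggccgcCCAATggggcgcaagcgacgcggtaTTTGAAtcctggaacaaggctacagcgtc
TOP2A: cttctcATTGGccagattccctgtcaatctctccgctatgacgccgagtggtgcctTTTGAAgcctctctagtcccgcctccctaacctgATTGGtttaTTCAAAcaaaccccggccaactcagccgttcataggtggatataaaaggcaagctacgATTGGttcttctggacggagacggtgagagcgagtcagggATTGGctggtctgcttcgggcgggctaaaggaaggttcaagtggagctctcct
The CCNB2 stretch holds 5 matches, 4 to the CCAAT box and 1 to the CHR. The TOP2A stretch holds 6, 4 to the CCAAT box and 2 to the CHR. A match is a stretch of letters and not a measured binding site.

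More DNA replication genes fell than rose in the average. Of 41 tested S phase genes, 6 rose and 17 fell in the average, where 19.9% and 20.3% of all tested genes did. In both lines 2 rose and 7 fell, where 6.83% and 8.6% of all tested genes did. The lines called 2 in opposite directions, and the median average log2 fold change was -0.14. In HaCaT 10 rose and 7 fell, where 15.5% and 15.9% of all tested genes did. In TIGK 2 rose and 24 fell, where 15.3% and 17% of all tested genes did. TK1, the thymidine kinase of dividing cells, averaged 352 ± 10.1 CPM in HaCaT at 24 h and 239 ± 11.1 at 0 h, and 267 ± 22.9 CPM in TIGK at 24 h and 154 ± 14.3 at 0 h, while MCM3, a subunit of the replicative helicase, averaged 120.3 ± 4.33 CPM in HaCaT at 24 h and 146 ± 5.60 at 0 h, and 161 ± 5.50 CPM in TIGK at 24 h and 233 ± 6.34 at 0 h. UHRF1, which maintains DNA methylation at replication, fell with an average log2 of -0.67.

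**Figure D3:**
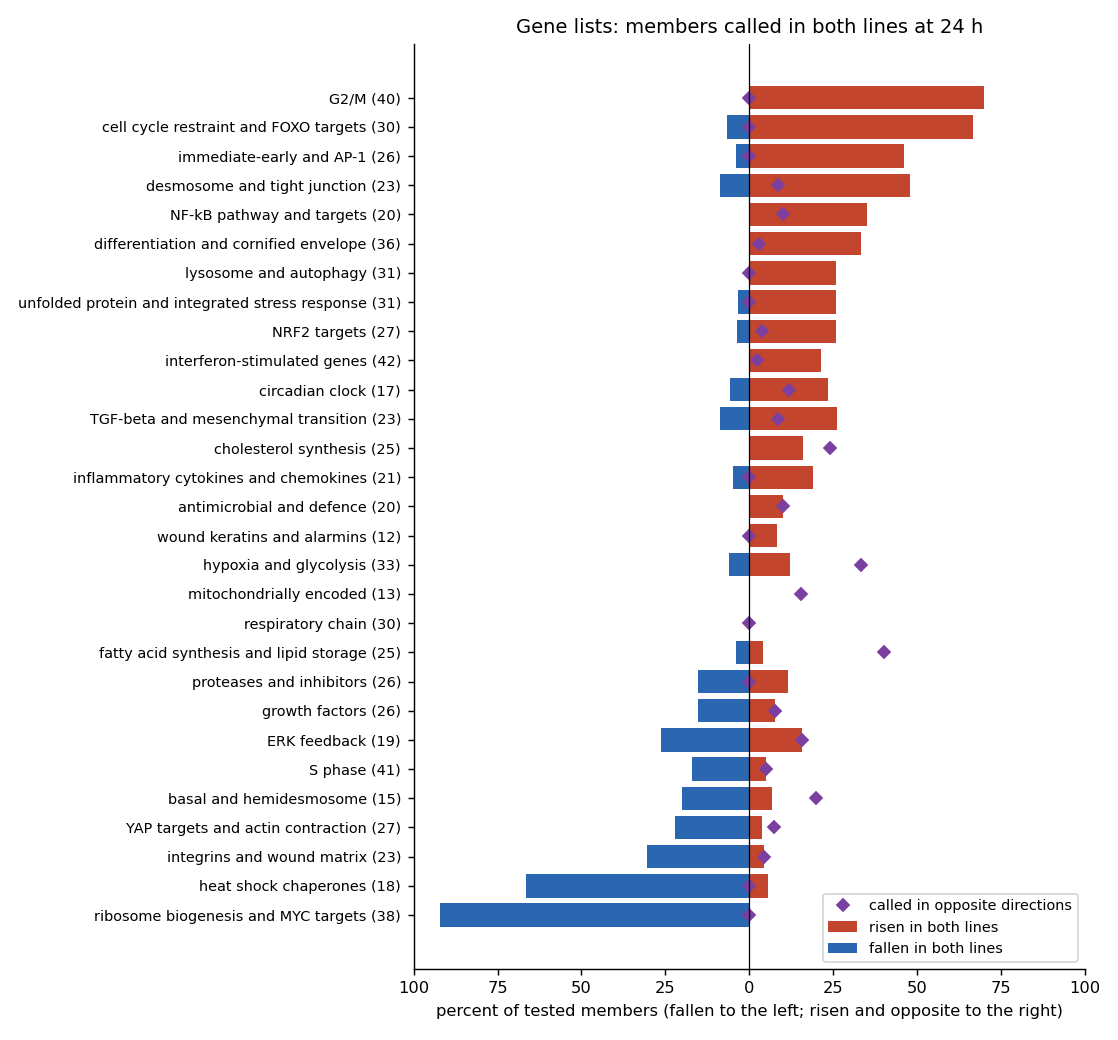
Percent of the tested members of each of 29 gene lists (number tested in brackets) that rose in both lines (right, red), fell in both (left, blue) or were called in opposite directions (purple diamonds). G2/M (28 of 40) and growth restraint (20 of 30) lie at the top. Ribosome biogenesis and MYC targets (35 of 38) and heat shock (12 of 18) lie at the bottom. Fatty acid and hypoxia genes have the diamonds farthest to the right.

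Differentiation genes rose or were not called. Of 36 tested, 20 rose and 0 fell in the average, 12 rose in both lines, and the median was 0.81. The shared members include the suprabasal keratins KRT1 and KRT10, the desmosomal cadherins DSG1 and DSC1, the lipid barrier genes ABCA12 and CERS3, and the transcription factors GRHL3, KLF4, OVOL1 and ZNF750. KLF4, a barrier regulator (chromosome 9, 107484852 to 107490482), had 113, 108 and 120.2 CPM in HaCaT at 24 h, against 70.1, 68.8 and 71.1 at 0 h, and 77.9, 78.0 and 76.2 CPM in TIGK at 24 h, against 33.3, 35.5 and 25.3 at 0 h. It rose more in TIGK (2.48-fold against 1.62-fold in HaCaT, adjusted p = 0.01 for the difference). OVOL1, a repressor that ends proliferation of progenitors in mouse epidermis, averaged 75.8 ± 5.84 CPM in HaCaT at 24 h and 27.6 ± 2.91 at 0 h, and 25.2 ± 3.02 CPM in TIGK at 24 h and 11.7 ± 2.74 at 0 h. FLG, which encodes filaggrin of the uppermost layers, was the 1 member called in opposite directions, with 52.0 ± 3.95 CPM in HaCaT at 24 h and 37.1 ± 1.77 at 0 h, and 0.637 ± 0.256 CPM in TIGK at 24 h and 1.39 ± 0.676 at 0 h.

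Most cell contact genes rose. Of 23 desmosome and tight junction genes, 14 rose and 2 fell in the average, and 11 rose and 2 fell in both lines. CLDN1, a claudin that seals tight junctions, had 399, 454 and 416 CPM in HaCaT at 24 h, against 137, 135 and 139 at 0 h, and 126, 120.1 and 104 CPM in TIGK at 24 h, against 70.1, 74.4 and 66.8 at 0 h. Its rise was larger in HaCaT, 3.09-fold against 1.66-fold (adjusted p = 9.9e-06 for the difference). The desmosomal cadherins DSC2 and DSG3 rose with average log2 fold changes of 1.16 and 0.75 (adjusted p = 5.7e-11 and 5.6e-09) and no called difference between lines. The 2 members that fell in both were CLDN7, another claudin, and GJB2, a connexin of gap junctions.

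Basal genes showed no common direction. Hemidesmosomes anchor basal cells to the basement membrane. The basal and hemidesmosome list also holds basal keratins and the transcription factors TP63 and BNC1. Of its 15 members, 6 rose and 4 fell in the average. In both lines 1 rose (DST) and 3 fell, ITGA3 and PLEC among them, and ITGB4, LAMA3 and LAMB3 were called in opposite directions. The TIGK fall of ITGA3, an integrin chain, lost its call without TIGK 0 h B (adjusted p = 0.063). LAMA3, a chain of laminin-332, averaged 635 ± 12.9 CPM in HaCaT at 24 h and 1040 ± 73.3 at 0 h, and was higher at 24 h in TIGK, with 490.1 ± 38.8 CPM in TIGK at 24 h and 299 ± 18.5 at 0 h. Of 12 wound keratins and alarmins 2 rose and 4 fell in the average, where 19.9% and 20.3% of all tested genes did. The 1 called up in both lines was KRT16, a keratin of activated epidermis, with 825 ± 150 CPM in HaCaT at 24 h and 360.2 ± 81.3 at 0 h, and 1278 ± 261 CPM in TIGK at 24 h and 896 ± 125 at 0 h; the TIGK call (adjusted p = 0.021) was lost with DESeq2 (adjusted p = 0.052), with limma on FPKM (adjusted p = 0.065), without TIGK 0 h B (adjusted p = 0.063), 0 h C (adjusted p = 0.082) or 24 h C (adjusted p = 0.15), without the letter C libraries of 0 h and 6 h, and without all 3 (adjusted p = 0.24).

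Most early transcription factors rose in the average, and more of them in HaCaT than in TIGK. Of 26 tested immediate-early and AP-1 genes, 19 rose and 1 fell in the average, with a median of 0.96. In both lines 12 rose and 1 fell. In HaCaT 21 rose and 1 fell (median log2 1.42), and in TIGK 12 rose and 2 fell (median 0.39). The response of 15 of the 26 differed between lines. JUNB, an AP-1 subunit (chromosome 19, 12791496 to 12793315), had 447, 459 and 446 CPM in HaCaT at 24 h, against 174, 182 and 161 at 0 h, and 363, 330.0 and 385 CPM in TIGK at 24 h, against 172, 164 and 172 at 0 h. It rose 2.61-fold in HaCaT and 2.12-fold in TIGK, and the difference was not called (adjusted p = 0.067). KLF6 and the AP-1 subunit FOSL2 rose more in HaCaT, with differences of 0.64 and 0.75 (adjusted p = 0.00095 and 0.00025). FOSL1, another AP-1 subunit, was the 1 member that fell in both, with 113 ± 10.1 CPM in HaCaT at 24 h and 185 ± 17.4 at 0 h, and 18.8 ± 2.29 CPM in TIGK at 24 h and 34.4 ± 7.18 at 0 h. Without all 3 TIGK libraries of letter C 2 fell in both.

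Feedback regulators of growth factor signalling went both ways. Of 19 tested, 5 rose and 8 fell in the average, 3 rose and 5 fell in both lines and 3 were called in opposite directions. In HaCaT 8 rose and 5 fell, and in TIGK 4 rose and 10 fell. The response of 12 of the 19 differed between lines. ERRFI1, an inhibitor of the EGF receptor (chromosome 1, 8004404 to 8026308), had 288, 298 and 324 CPM in HaCaT at 24 h, against 42.6, 42.5 and 39.0 at 0 h, and 222, 222 and 214 CPM in TIGK at 24 h, against 143, 138 and 129 at 0 h. It rose in both lines, far more in HaCaT (7.34-fold against 1.61-fold, adjusted p = 7e-13 for the difference). DUSP10, a phosphatase of p38 and JNK kinases, rose with log2 fold changes of 2.42 in HaCaT and 1.23 in TIGK. DUSP4, a phosphatase of ERK, fell with -0.51 in HaCaT and -1.46 in TIGK. The opposite calls were DUSP2, DUSP6 and PHLDA1.

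The list of inflammatory cytokines and chemokines also holds the enzyme gene PTGS2. Of its 21 tested members, 13 rose and 1 fell in the average. In both lines 4 rose (2 without TIGK 0 h C and 6 h C, and 1 without all 3 libraries of letter C), PTGS2 among the 4. In HaCaT 13 rose, and in TIGK 7. CXCL8, the neutrophil chemokine interleukin-8, averaged 61.9 ± 7.65 CPM in HaCaT at 24 h and 2.09 ± 0.953 at 0 h, and 6.67 ± 0.550 CPM in TIGK at 24 h and 3.95 ± 0.888 at 0 h (adjusted p = 6.7e-09 for the difference). Its TIGK call (adjusted p = 0.013) was lost without TIGK 0 h B or 0 h C (adjusted p = 0.056 for each) and without all 3 libraries of letter C (adjusted p = 0.082). PTGS2, the inducible cyclooxygenase, averaged 44.2 ± 1.87 CPM in HaCaT at 24 h and 13.3 ± 1.21 at 0 h, and 6.04 ± 1.6 CPM in TIGK at 24 h and 3.90 ± 1.3 at 0 h, and its TIGK libraries overlapped between times. Its TIGK call (adjusted p = 0.014) was lost without TIGK 0 h B (adjusted p = 0.09), 0 h C (adjusted p = 0.061) or 24 h B (adjusted p = 0.12), without the letter C libraries of 0 h and 6 h (adjusted p = 0.059), and without all 3 (adjusted p = 0.088). CXCL1, another neutrophil chemokine, had 37.7, 34.0 and 33.6 CPM in HaCaT at 24 h, against 1.15, 1.36 and 1.43 at 0 h, and 0.589, 2.87 and 3.08 CPM in TIGK at 24 h, against 2.15, 1.38 and 1.89 at 0 h. The TIGK groups overlapped, and the average log2 fold change of 2.49 (adjusted p = 6.7e-09) came with 4.73 in HaCaT and 0.26 in TIGK (adjusted p = 0.61). IL1A, an alarm cytokine of keratinocytes, likewise had an average of 1.84 with 3.36 in HaCaT and 0.32 in TIGK (adjusted p = 0.21).

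Of 20 NF-kB pathway genes, which are subunits, inhibitors and targets, 16 rose and 0 fell in the average, and 7 rose in both lines, among them the inhibitors NFKBIA and TNFAIP3. In HaCaT 16 rose and 0 fell. In TIGK 8 rose and 2 fell. NFKB2 and NFKBIE were called in opposite directions, and 10 of the 20 had a called difference between lines. Without TIGK 0 h C and 6 h C, and also without all 3 libraries of letter C, 1 fell in the average. NFKBIA, which holds NF-kB in the cytoplasm and is itself switched on by it (chromosome 14, 35401511 to 35404749), had 192, 181 and 204 CPM in HaCaT at 24 h, against 65.0, 53.1 and 54.3 at 0 h, and 108, 113 and 129 CPM in TIGK at 24 h, against 68.8, 56.0 and 56.4 at 0 h. It rose 3.35-fold in HaCaT and 1.93-fold in TIGK (adjusted p = 0.00021 for the difference). TNFAIP3, a deubiquitinase that shuts off the pathway, averaged 274 ± 19 CPM in HaCaT at 24 h and 37.7 ± 2.91 at 0 h, and 35.9 ± 4.38 CPM in TIGK at 24 h and 26.5 ± 2.94 at 0 h. The promoter of NFKBIA is printed because it holds the NF-kB letters GGGANTTTC more than once, as 6 of 18 list members hold them at least once (33.3%), against 1.23% of all tested genes. Its 250 bases before the RefSeq start (minus strand, chr14:35404750-35404999) have 2 matches, in capitals.
NFKBIA: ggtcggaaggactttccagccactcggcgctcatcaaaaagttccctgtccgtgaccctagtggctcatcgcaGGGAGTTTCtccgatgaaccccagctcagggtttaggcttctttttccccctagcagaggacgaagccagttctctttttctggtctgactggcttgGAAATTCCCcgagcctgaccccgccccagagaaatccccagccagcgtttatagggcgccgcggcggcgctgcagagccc
Among the genes risen in both lines these letters were found in 2.19% of promoters, and among those fallen in both in 0.343%.

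Of 23 integrin and wound matrix genes, 8 rose and 10 fell in the average, and 1 rose and 7 fell in both lines. ITGB1, the common chain of migration integrins, had 484, 503 and 473 CPM in HaCaT at 24 h, against 839, 818 and 849 at 0 h, and 315, 338 and 298 CPM in TIGK at 24 h, against 484, 452 and 416 at 0 h. The fall was 1.72-fold in HaCaT and 1.42-fold in TIGK (average adjusted p = 1.7e-10), without overlap. THBS2, a matrix thrombospondin, averaged 2.16 ± 0.198 CPM in HaCaT at 24 h and 5.38 ± 1.44 at 0 h, and 99.6 ± 2.92 CPM in TIGK at 24 h and 274 ± 20.6 at 0 h. LAMA5, a laminin chain, was the 1 member that rose in both, and its HaCaT call (adjusted p = 0.017) was lost without HaCaT 0 h B (adjusted p = 0.074), 24 h A (adjusted p = 0.051) or 24 h B (adjusted p = 0.078). Without TIGK 0 h C and 6 h C, and also without all 3 libraries of letter C, 2 rose in both.

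Of 27 YAP targets and actin genes, 5 rose and 16 fell in the average, and 1 rose and 6 fell in both lines. ACTN1, which cross-links actin, averaged 367 ± 6.69 CPM in HaCaT at 24 h and 663 ± 33.5 at 0 h, and 569 ± 43.0 CPM in TIGK at 24 h and 762 ± 44.1 at 0 h. ACTB, cytoplasmic actin, fell in both, although its TIGK call (adjusted p = 0.018) was lost without TIGK 0 h B (adjusted p = 0.1) and with limma on FPKM (adjusted p = 0.11). AMOTL2, a scaffold that holds YAP back, was the 1 that rose, with 336 ± 14.4 CPM in HaCaT at 24 h and 151 ± 10.5 at 0 h, and 167 ± 19.4 CPM in TIGK at 24 h and 124 ± 8.46 at 0 h. Without all 3 TIGK libraries of letter C 3 rose in both.

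Among 26 proteases and inhibitors, 8 rose and 9 fell in the average, and 3 rose and 4 fell in both lines. Of all tested genes 19.9% and 20.3% did so in the average, and 6.83% and 8.6% in both lines. MMP13, a collagenase (chromosome 11, 102942995 to 102955734), had 80.9, 73.6 and 72.5 CPM in HaCaT at 24 h, against 11.9, 9.29 and 10.4 at 0 h, and 8.91, 7.25 and 9.51 CPM in TIGK at 24 h, against 0.983, 1.38 and 0.908 at 0 h. The rise was 7.21-fold in HaCaT and 7.92-fold in TIGK (average log2 2.92, SE 0.12, adjusted p = 6.6e-15), and the difference was -0.14 (adjusted p = 0.79). Another collagenase, MMP1, and the stromelysin MMP3 were among the 4 that fell in both, MMP1 with an average log2 fold change of -1.06. MMP3 averaged 0.349 ± 0.0285 CPM in HaCaT at 24 h and 18 ± 5.47 at 0 h, and 0.178 ± 0.154 CPM in TIGK at 24 h and 0.821 ± 0.445 at 0 h. PLAU, the urokinase plasminogen activator, rose 2.47-fold in HaCaT and 1.44-fold in TIGK, and its inhibitor SERPINE2 fell, as above. Of 26 growth factors 6 rose and 6 fell in the average, where 19.9% and 20.3% of all tested genes did. WNT4 and IGFBP3 rose in both, and NRG1, PDGFA, FGFBP1 and BMP6 fell in both. FGFBP1, a carrier of fibroblast growth factors, had 585, 532 and 627 CPM in HaCaT at 24 h, against 882, 901 and 836 at 0 h, and 365, 407 and 470.2 CPM in TIGK at 24 h, against 1231, 1314 and 1080 at 0 h, and fell more in TIGK (adjusted p = 4.7e-06 for the difference). NRG1, a ligand of ERBB receptors, fell more in HaCaT (log2 -1.02 against -0.54 in TIGK, adjusted p = 0.0046 for the difference).

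ID genes, targets of BMP signalling that block differentiation factors, rose together. ID3 had 365, 345 and 348 CPM in HaCaT at 24 h, against 169, 193 and 164 at 0 h, and 390.4, 329 and 427 CPM in TIGK at 24 h, against 114, 97.2 and 95.2 at 0 h. The rises were larger in TIGK for ID1, ID2 and ID3, with log2 fold changes of 1.72, 2.34 and 1.90 there and of 0.92, 1.11 and 1.01 in HaCaT (adjusted p = 0.002, 0.0015 and 0.00016 for the differences). They belong to the TGF-beta and mesenchymal transition list. Of its 23 tested members 8 rose and 3 fell in the average, where 19.9% and 20.3% of all tested genes did. In both lines 6 rose and 2 fell, where 6.83% and 8.6% of all tested genes did. BMP6, a ligand of BMP signalling, fell in the same libraries, as above.

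Of 31 unfolded protein and integrated stress response genes, 17 rose and 5 fell in the average, and 8 rose and 1 fell in both lines (10 and 2 without TIGK 0 h C and 6 h C, 11 and 1 without all 3 libraries of letter C). PPP1R15A, which restarts translation after stress, averaged 76.0 ± 4.03 CPM in HaCaT at 24 h and 19.8 ± 2.43 at 0 h, and 41.0 ± 4.03 CPM in TIGK at 24 h and 28.5 ± 4.79 at 0 h. DDIT3, the transcription factor CHOP, rose with an average log2 of 1.47 and SLC7A11, the cystine transporter, with 0.74. Of 27 NRF2 targets, 13 rose and 2 fell in the average, and 7 rose and 1 fell in both. GPX2, a glutathione peroxidase, averaged 93.5 ± 7.92 CPM in HaCaT at 24 h and 66.3 ± 2.67 at 0 h, and 6.22 ± 0.250 CPM in TIGK at 24 h and 2.54 ± 0.405 at 0 h. GCLC, the rate-limiting enzyme of glutathione synthesis, rose with an average log2 of 0.58, and its TIGK call (adjusted p = 0.0077) was lost without TIGK 0 h B (adjusted p = 0.052) and with no filter on low counts (adjusted p = 0.06). The 1 that fell in both was ABCC3, an export pump, with an average log2 of -0.73.

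Of 31 lysosome and autophagy genes, 13 rose and 2 fell in the average, and 8 rose and 0 fell in both lines. Without all 3 TIGK libraries of letter C 4 fell in the average. GABARAPL1, an autophagosome protein, had 31.5, 29.2 and 30.2 CPM in HaCaT at 24 h, against 10.6, 9.29 and 11.6 at 0 h, and 17.4, 17.7 and 19.1 CPM in TIGK at 24 h, against 6.70, 6.81 and 9.19 at 0 h. ULK1, the kinase that starts autophagy, and TFE3, a regulator of lysosome genes, rose with average log2 fold changes of 0.94 and 0.69 and no called difference between lines. The clock list was mixed: of 17 tested, 7 rose and 6 fell in the average, 4 rose in both and CLOCK alone fell in both (0 without TIGK 0 h C and 6 h C, 1 without all 3 libraries of letter C). PER1, a clock repressor and a glucocorticoid target like TSC22D3, had 217, 234 and 224 CPM in HaCaT at 24 h, against 69.8, 62.7 and 77.4 at 0 h, and 249.6, 215 and 208 CPM in TIGK at 24 h, against 119, 125 and 111 at 0 h. DBP, a clock output factor, rose with an average log2 of 1.24. NFIL3 rose with 0.56, and its TIGK call (adjusted p = 0.006) was lost without TIGK 0 h C (adjusted p = 0.05). Of 20 antimicrobial and defence genes 6 rose and 0 fell in the average and 2 rose in both, namely TLR3, a receptor for double-stranded RNA, and DUOX1, an oxidase, with average log2 fold changes of 1.52 and 0.33. In HaCaT 7 rose and 1 fell, where 15.5% and 15.9% of all tested genes did. In TIGK 3 rose and 4 fell, where 15.3% and 17% of all tested genes did. C3 and MUC16 were called in opposite directions. In the average 4 rose and 1 fell without TIGK 0 h C and 6 h C, and 4 and 0 without all 3 libraries of letter C.

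In other lists the average joined unlike responses. Of 42 interferon-stimulated genes, 38 rose and 0 fell in the average, but 41 rose in TIGK, against 10 risen and 1 fallen in HaCaT, and 9 rose in both. The median log2 fold change was 0.27 in HaCaT and 2.01 in TIGK, and 32 members had a called difference between lines. RSAD2, the antiviral enzyme viperin, had 1.46, 1.02 and 0.391 CPM in HaCaT at 24 h, against 0, 0.867 and 0.0624 at 0 h, and 49.2, 28.7 and 41.1 CPM in TIGK at 24 h, against 6.08, 2.83 and 3.25 at 0 h. The HaCaT libraries overlapped between times and the HaCaT change was not called (adjusted p = 0.083), while the average was called at 2.45 (adjusted p = 1e-05) and the difference between lines was not (adjusted p = 0.21). CMPK2, its genomic neighbour, had an average of 1.89, with 0.71 in HaCaT (adjusted p = 0.29) and 3.08 in TIGK. STAT2, a transcription factor of interferon signalling, was shared, with 40.3, 41.9 and 44.9 CPM in HaCaT at 24 h, against 20.4, 24.9 and 30.9 at 0 h, and 282, 215 and 239.6 CPM in TIGK at 24 h, against 73.3, 65.9 and 68.9 at 0 h. PARP14 and TAP1, a peptide transporter of antigen presentation, also rose in both, with average log2 fold changes of 1.37 and 0.80, and each of these 3 rose more in TIGK (adjusted p from 3.3e-05 to 0.041 for the differences). DDX60L, a helicase induced by interferon that is outside the list, was called in opposite directions: it had 7.56, 5.66 and 7.31 CPM in HaCaT at 24 h, against 13.8, 17.2 and 17.9 at 0 h, and 174, 141 and 146 CPM in TIGK at 24 h, against 55.7, 45.3 and 43.1 at 0 h. Its average of 0.22 was not called (adjusted p = 0.11).

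Hypoxia and glycolysis genes, which include targets of the oxygen-sensing factor HIF, were split between lines. Of 33 tested, 18 rose and 2 fell in the average. In HaCaT 24 rose and 2 fell, in TIGK 4 rose and 14 fell, and 11 were called in opposite directions. EGLN3, the prolyl hydroxylase that marks HIF for decay and is itself a HIF target (chromosome 14, 33924231 to 34462774), had 24.7, 22.1 and 29.3 CPM in HaCaT at 24 h, against 3.33, 8.73 and 5.43 at 0 h, and 11.7, 14.0 and 13.5 CPM in TIGK at 24 h, against 33.1, 28.2 and 20.4 at 0 h. Neither line's groups overlapped, and the average of 0.53 (adjusted p = 0.0096) joined 2.12 in HaCaT and -1.06 in TIGK. The 4 members that rose in both were NDRG1, DDIT4, HK1 and BNIP3L, and PFKP and SLC16A3 fell in both. NDRG1, a stress-induced differentiation protein, averaged 1722 ± 186 CPM in HaCaT at 24 h and 539 ± 3.00 at 0 h, and 1053 ± 111 CPM in TIGK at 24 h and 721 ± 155 at 0 h. DDIT4, an inhibitor of mTOR, rose 2.96-fold in HaCaT and 1.23-fold in TIGK, and the TIGK call (adjusted p = 0.0085) was lost without TIGK 0 h C (adjusted p = 0.062) and without all 3 libraries of letter C (adjusted p = 0.053). In that setting 2 list members rose in both. Outside the list PPFIA4, a liprin, had 27.5, 23.7 and 24.7 CPM in HaCaT at 24 h, against 7.95, 6.75 and 6.80 at 0 h, and 12.6, 11.8 and 13.7 CPM in TIGK at 24 h, against 32.2, 33.7 and 32.0 at 0 h. NGFR, the low-affinity neurotrophin receptor, had 15.0, 9.21 and 13.0 CPM in HaCaT at 24 h, against 2.95, 5.39 and 4.99 at 0 h, and 15.8, 13.2 and 17.1 CPM in TIGK at 24 h, against 31.0, 37.2 and 37.5 at 0 h. Both were called upward in HaCaT and downward in TIGK, and the average of PPFIA4 (log2 0.23, adjusted p = 0.039) lost its call without any of 9 single libraries (adjusted p = 0.0516 to 0.106).

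Lipid genes were also split. Of 25 cholesterol synthesis genes, 16 rose and 1 fell in the average, 21 rose and 0 fell in HaCaT, 5 rose and 7 fell in TIGK, and 6 were called in opposite directions. The 4 that rose in both were STARD4, MVK, SREBF2 and HSD17B7. STARD4, a sterol carrier, averaged 153 ± 1.46 CPM in HaCaT at 24 h and 70.3 ± 5.17 at 0 h, and 49.2 ± 2.99 CPM in TIGK at 24 h and 28.4 ± 3.26 at 0 h. SREBF2, the master regulator of sterol genes, rose with an average log2 of 0.36 and no called difference between lines (adjusted p = 0.45). MVK, mevalonate kinase, rose with 0.47, and its TIGK call (adjusted p = 0.016) was lost without TIGK 24 h C (adjusted p = 0.08), without all 3 libraries of letter C (adjusted p = 0.073) and with no filter on low counts (adjusted p = 0.087). Without those 3 libraries 2 list members rose in both. Of 25 fatty acid and lipid storage genes, 9 rose and 4 fell in the average, 15 rose and 2 fell in HaCaT, 4 rose and 12 fell in TIGK, and 10 were called in opposite directions. LPIN1, a phosphatidate phosphatase, was the 1 that rose in both (average log2 0.58), and CPT1A, which admits fatty acids to mitochondria, the 1 that fell (average log2 -0.48).

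Of 30 nuclear-encoded subunits of the respiratory chain, 5 rose and 1 fell in the average, where 19.9% and 20.3% of all tested genes did, and 0 were called in both lines in the same direction. ATP5F1B and ATP5F1A, subunits of ATP synthase, were not called (average log2 0.02, adjusted p = 0.78, and 0.06, adjusted p = 0.37). Of 13 mitochondrially encoded transcripts, 2 rose and 1 fell in the average, where 19.9% and 20.3% of all tested genes did. Without TIGK 0 h C and 6 h C 4 rose and 2 fell, and without all 3 libraries of letter C 5 and 2. In HaCaT 0 rose and 3 fell, where 15.5% and 15.9% of all tested genes did. In TIGK 8 rose and 0 fell, where 15.3% and 17% of all tested genes did. MT-CO1 averaged 15502 ± 246 CPM in HaCaT at 24 h and 16758 ± 491 at 0 h, and 18016 ± 593 CPM in TIGK at 24 h and 14107 ± 1841 at 0 h. MT-CO3 averaged 9782 ± 310 CPM in HaCaT at 24 h and 10003 ± 506 at 0 h, and 9717 ± 649 CPM in TIGK at 24 h and 7022 ± 1367 at 0 h, and its average call (adjusted p = 0.046) was lost without any of 9 single libraries, TIGK 0 h C among them (adjusted p = 0.0543 to 0.135). TIGK 0 h C had the lowest share of mitochondrial reads.

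**Figure D4:**
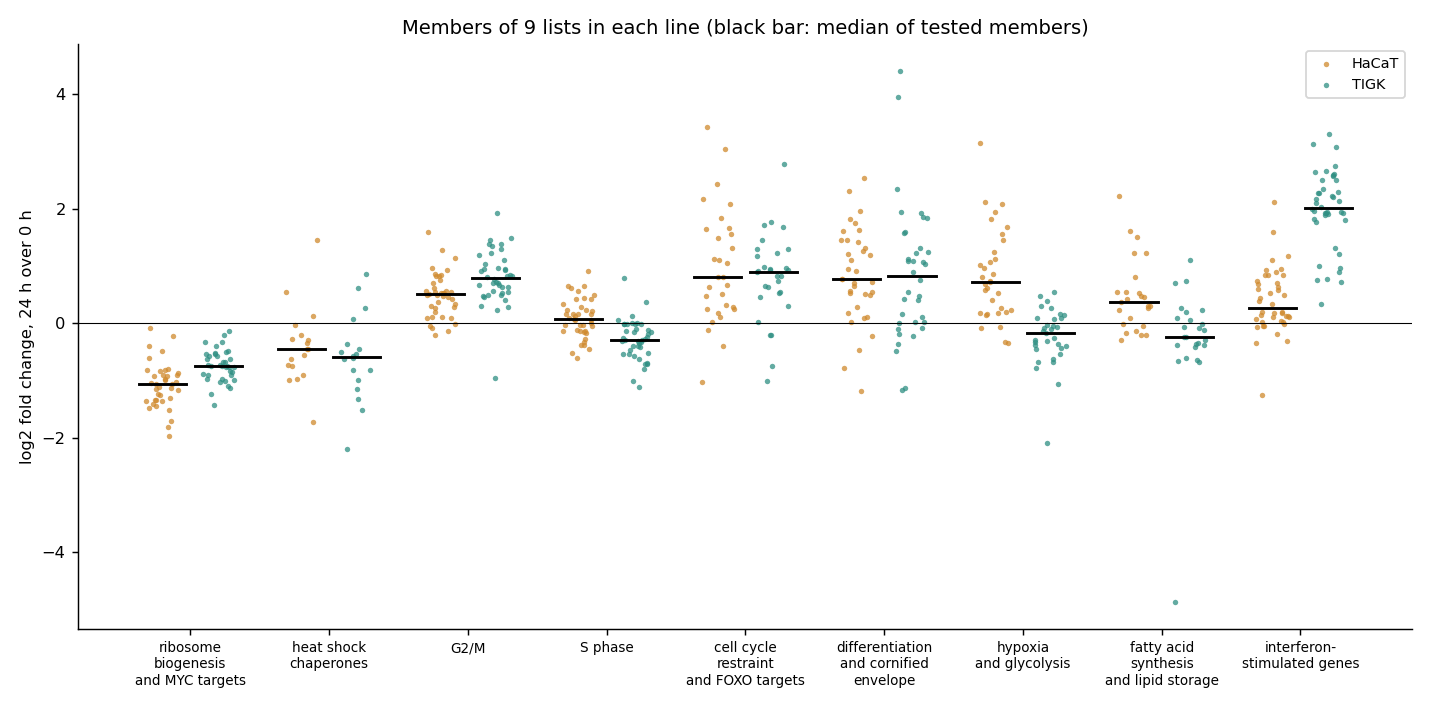
Log2 fold change, 24 h over 0 h, of each tested member of 9 lists in HaCaT (left of each pair, orange) and TIGK (right, green), with the median as a black bar. Ribosome biogenesis and MYC target, heat shock, G2/M, growth restraint and differentiation genes have medians on the same side of 0 in both lines. Hypoxia, fatty acid and interferon-stimulated genes have medians that differ: 0.73 against -0.17, 0.37 against -0.24 and 0.27 against 2.01 in HaCaT and TIGK.

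Some large averages rested on 1 line. NPTX1, a neuronal pentraxin, had 0.254, 0.341 and 0.196 CPM in HaCaT at 24 h, against 0.577, 0.310 and 0.998 at 0 h, and 11.3, 10.5 and 6.63 CPM in TIGK at 24 h, against 263, 250.4 and 215 at 0 h. Its HaCaT libraries overlapped between times, and its average log2 of -2.95 (adjusted p = 7.2e-09) joined -4.68 in TIGK and -1.23 in HaCaT (adjusted p = 0.077). DAW1, NCCRP1 and HENMT1 were called downward in the average with almost no counts in HaCaT. DAW1 had 0, 0 and 1 counts in HaCaT at 24 h, against 1, 5 and 1 at 0 h, NCCRP1 had 0, 0 and 0 counts in HaCaT at 24 h, against 0, 2 and 1 at 0 h, and HENMT1 had 0, 0 and 0 counts in HaCaT at 24 h, against 1, 2 and 2 at 0 h. The HaCaT change of HENMT1 was called (adjusted p = 0.034) on these counts. The average calls of NCCRP1 and HENMT1 were lost without any of 10 single libraries for NCCRP1 (adjusted p = 0.0571 to 0.223) and without any of 5 for HENMT1 (adjusted p = 0.0607 to 0.0777). In TIGK HENMT1, a small RNA methyltransferase, averaged 38.0 ± 2.76 CPM at 24 h and 36.1 ± 2.09 at 0 h and was not called (adjusted p = 0.69), while DAW1 fell to 1.06 ± 0.312 CPM at 24 h, against 10.6 ± 1.89 at 0 h, and NCCRP1 to 7.23 ± 0.374 CPM, against 12.2 ± 2.04.

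Promoter sequences were found for 11480 of the 17409 tested genes, for 915 of the genes risen in both lines and for 1165 of those fallen in both. The letters of the AP-1 site, TGANTCA, were found in 6.89% of promoters of genes risen in both, 3.61% of those fallen in both and 4.93% of all tested; among the differentiation genes the share was 32.3% (10 of 31). The E-box was found in 10.2% of promoters of genes risen in both and 14.5% of those fallen in both; its letters include ACGTG, the hypoxia core. These shares are descriptions of the letters in the window, and no test was made of them.

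**Figure D5:**
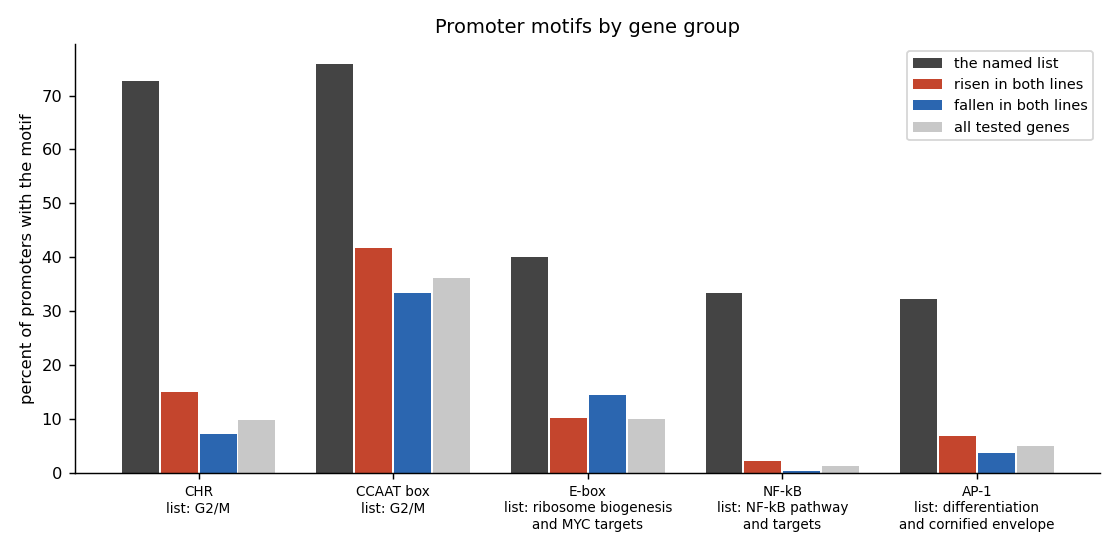
Percent of promoters that hold each of 5 motifs, for the gene list named under it (dark), genes risen in both lines (red), genes fallen in both (blue) and all tested genes (grey). The CHR reaches 72.7% in G2/M promoters, against 9.7% of all tested. The E-box reaches 40.0% in promoters of ribosome biogenesis and MYC targets, against 9.93%.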

How the data were processed

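RNA was extracted with Trizol, and libraries were made by a company, per the labels' protocols. The submitters' processing notes name HISAT2 2.0.5, StringTie 1.3.3b, featureCounts 1.5.0-p3 and the build hg38, with no role stated. The authors deposited raw counts per gene for all 18 libraries, and FPKM values, which were used for an alternative. Neither strand use in counting nor separate cultures for replicates is given in the sources used here, so p-values may measure technical spread and overlapping or antisense genes may share reads.

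Columns carry letters A to C that are not tied to the labels' replicate numbers, so libraries are named by line, time and letter. Counts were fitted with edgeR 4.0.16 (R 4.3.3) quasi-likelihood tests over all 18 libraries in 6 groups, after filterByExpr and TMM scaling, with 12 residual degrees of freedom. P-values were adjusted by Benjamini-Hochberg over all 17409 tested genes. SE is the log2 fold change divided by the square root of F, an approximation. Levels are TMM-scaled CPM, with the mean and SD over 3 libraries. The procedure was checked on simulated counts. These had a common spread and the same changes in both lines, unlike the data, so the check does not cover line differences. Alternatives used DESeq2 1.42.0, limma 3.58.1 on log2(FPKM + 0.5), other scaling and filters, a block and left-out libraries; list counts without TIGK 0 h C and 6 h C, and all counts without TIGK 0 h C, 6 h C and 24 h C, were added after seeing the data.

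Members and lists were chosen with earlier results of these data known. Named genes are protein-coding: the 12 each way with the largest shared change (judged by the line that changed less, at least 10 CPM in each line, libraries of the times not overlapping), the 4 each way with the largest average called in 1 line, the 4 most opposite, and up to 3 members of each list with the lowest adjusted p among shared calls (or, with none, 2 with the highest CPM). Other list members were named after their values were seen, as examples or because a count was small. Some results that this rule names are not reported here. The promoter genes UTP20 and UTP4 were chosen for their matches.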

Additional observations from a re-analysis of the deposited data

Results flagged for a closer look

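Among 110 named genes, the size of the response differed between the lines for 55 by the interaction test of the fit (edgeR, adjusted over all genes tested). The values in brackets are the HaCaT minus the TIGK log2 fold change; 32 are positive and 23 negative. A positive value means a larger rise or a smaller fall in HaCaT, or a rise there against a fall in TIGK.

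Chemokine, cytokine and NF-kB genes had positive values: CXCL1 (4.46), CXCL8 (4.12), IL1A (3.04), BIRC3 (1.64), TNFAIP3 (2.42) and NFKBIA (0.79). CXCL14 (-0.76) was the 1 chemokine among the flagged genes with a negative value. Positive too were the cyclooxygenase PTGS2 (1.08) and the feedback regulators ERRFI1 (2.19), DUSP10 (1.19) and DUSP4 (0.95). So were KLF6 (0.64), FOSL2 (0.75) and BTG2 (0.7) of the immediate-early and AP-1 list. The stress response gene PPP1R15A (1.42), the cell cycle inhibitor CDKN1A (0.68) and the clock gene PER1 (0.76) also had positive values.

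Interferon genes and the ID genes had negative values: CMPK2 (-2.37), STAT2 (-1.09), PARP14 (-1.03), TAP1 (-0.34) and DDX60L (-2.93), and ID1 (-0.8), ID2 (-1.22) and ID3 (-0.9). The mitotic genes TPX2 (-0.53) and CCNB2 (-0.57) rose more in TIGK, and the ribosome biogenesis genes RRP12 (-0.58) and MYBBP1A (-0.54) fell more in HaCaT. The chaperones HSPA8 (0.48) and HSPA1A (0.8) fell more in TIGK.

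Genes of oxygen and lipid metabolism had positive values: EGLN3 (3.17), NDRG1 (1.13), DDIT4 (1.27), MVK (0.42) and CPT1A (0.39). So did PPFIA4 (3.18), NGFR (2.68), GCLC (0.62) and ATP5F1B (0.27), while GPX2 (-0.77), MT-CO1 (-0.47), PTGS1 (-0.47) and AQP3 (-0.46) had negative values. Among genes of contacts, matrix and signalling, CLDN1 (0.9), PLAU (0.78), FGFBP1 (0.96), AMOTL2 (0.72) and NPTX1 (3.44) had positive values and ITGA3 (-0.42), LAMA5 (-0.62), KLF4 (-0.61), NRG1 (-0.48), ACTN1 (-0.43) and ACTB (-0.45) had negative ones.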

How the results depend on the processing

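At a false discovery rate of 0.01, 773 genes rose and 991 fell in both lines, 127 were called in opposite directions and the response of 1283 differed between lines; fewer calls follow from the stricter threshold. Under the other alternatives each count that was computed stayed within 1.5 times its reported value; the additive model of line plus time gave only those of the average (2879 risen, 3068 fallen). DESeq2 called 1359 genes up and 1483 down in both lines, and the average rose for 3809 and fell for 3510. Leaving out single libraries gave 989 to 1163 shared rises, 1287 to 1442 shared falls, 3160 to 3360 average rises, 3277 to 3576 average falls, 248 to 298 opposite calls and 1898 to 2273 line differences. No pairing by column letter was seen between 0 h and 24 h. Correlations of deviations were -0.024 to 0.022 for the same letter and -0.036 to 0.026 for different letters. They were taken over all tested genes, those with few counts included, so they cannot exclude a letter effect. With a replicate block by letter, 1270 genes rose and 1607 fell in both lines, 3566 and 3679 in the average, 375 were opposite and 2718 differed.

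Of the settings tried for the named genes, 2299 values kept direction and call, 46 lost the call (NCCRP1, HENMT1, PPFIA4, MT-CO3 and EGLN3), 3 gained it and 4 changed sign. The ATP5F1B average log2, near 0 and not called, turned to -0.0036 with no filter, and left-out libraries gave -2.3e-05 to 0.0376. In an additive model of line plus time HENMT1 turned to 0.0216 and NGFR to -0.0066; the cause was not tested. The median of all genes moved by under 0.1 in every setting. The number of libraries per group and the depth of each library limit what could be called for genes with few counts.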

Other observations

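Further promoter motifs differed in frequency between the gene groups, given here as shares of promoters with no test. The ETS letters CCGGAAG were found in 10.1% of genes risen in both lines and 22.7% of those fallen in both, against 18% of all tested. The TATA letters TATAAA were found in 7.32% of the risen and 3.95% of the fallen genes, against 6.03% of all tested, and the ATF4 and CEBP letters TGATGNAA in 2.40%, 0.773% and 1.68%. The CCAAT box was found in 15 of 18 promoters of cholesterol synthesis genes (83.3%), against 36.1% of all tested.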
